A study of Mus musculus with 17 samples.

Results

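The genes described here are the nutrient solute carriers, membrane proteins that move sugars, amino acids, monocarboxylates and sugar phosphates across cell and organelle membranes. Members were taken by gene symbol from 9 families (Slc1, Slc2, Slc3, Slc5, Slc7, Slc16, Slc37, Slc38 and Slc43), which gave 66 of the 22859 genes in the table, and 46 of them passed the filter on low counts. The symbol rule itself used no measured value, but it was chosen with earlier results of these data known. Levels were measured by bulk RNA sequencing on sorted macrophages of the joint lining (synovium) from adult mice labelled as knockouts of Fcgr2b, the inhibitory Fc receptor for immunoglobulin G. Every group carried this genotype, and the labels give no other allele. LYVE1+CX3CR1+ macrophages (gated as negative for MHCII and Ly6C), MHCII+CD11c- macrophages and MHCII+CD11c+ macrophages came from control mice or from mice that had received immune complexes (IC), antigen bound by its antibody, into a vein 8 h earlier. They are called LYVE1+, CD11c- and CD11c+ macrophages below. There were 3 libraries for each subset in controls, 3 each for LYVE1+ and CD11c- macrophages after IC, and 2 for CD11c+ macrophages after IC. Controls are described as mice without IC, and whether they received a vehicle, and how many mice of this genotype were pooled into each library, was not found in the sources used here, so p-values measure the spread between these libraries.

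Solute carriers work in roles that can be told apart. Heteromeric amino acid exchangers pair the heavy chain Slc3a2 (CD98) with a light chain of the Slc7 family such as Slc7a5, Slc7a7, Slc7a8 or Slc7a11, while the cationic transporters Slc7a1 and Slc7a2 bring in arginine without a heavy chain. Slc1a4, Slc1a5 and several members of Slc38 carry neutral amino acids together with sodium, and some Slc38 proteins sit in the lysosome. Slc2 members carry glucose and, for some of them, other sugars, urate or myo-inositol, and Slc16 members carry lactate and other monocarboxylates. Some Slc37 members, among them Slc37a2 and Slc37a4, exchange sugar phosphates for phosphate at the endoplasmic reticulum. Macrophages are known to change sugar and amino acid uptake with activation.

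Libraries held between 2301913 and 7248939 counts. Levels are counts relative to library size (CPM), with library sizes scaled by TMM, and differences are log2 fold changes with their standard error (SE) from edgeR's quasi-likelihood test, and adjusted p-values follow Benjamini and Hochberg over all 15272 genes tested in a contrast. A gene was called at an adjusted p under 0.05. The knocked-out gene itself still had between 167 and 1168 counts per library, with no library of another genotype among the 17, so this label could not be checked here. The 6 macrophage markers summed to at least 7370 CPM in every library. In CD11c+ controls most of this sum was Lyz2, at 6113 to 7724 CPM. Other markers of the list were lower there than in LYVE1+ controls. Csf1r was at 669.8 to 713.7 CPM against 2374 to 3361 CPM, and Fcgr1 at 0.76 to 19.9 CPM against 58.7 to 63.6 CPM. Mertk was at 15.5 to 55.5 CPM against 209.6 to 237.3 CPM. The 4 MHCII-side markers summed to 19.8 to 155.7 CPM in LYVE1+ libraries and to at least 11130 CPM in the MHCII+ libraries, and Itgax (CD11c) was at 275.3 to 443.1 CPM in CD11c+ libraries against at most 16.1 CPM elsewhere. The 5 LYVE1-side markers separated the subsets less sharply. They summed to at least 3552 CPM in LYVE1+ libraries. In CD11c- libraries they summed to 987.9 to 1721 CPM in controls and 1817 to 3293 CPM after IC. In CD11c+ libraries the sums were 57.5 to 580.7 CPM in controls, highest in replicate 2 (Lyve1 at 382.1 CPM), and 265.7 to 558.7 CPM after IC. Summed levels of 6 neutrophil markers ran from 12.6 to 39.8 CPM in LYVE1+ libraries and from 74.3 to 270.5 CPM in CD11c+ control libraries. Those of 2 monocyte markers ran from 4.15 to 38.1 CPM and from 547.1 to 1153 CPM in the same libraries. These monocyte sums were nearly all Ccr2, and the other marker, Ly6c2, was at most 5.12 CPM in any library. After IC the neutrophil markers summed to 25.1 and 29.5 CPM in CD11c+ libraries, where Csf3r alone was at 23.95 and 29.13 CPM. In LYVE1+ libraries after IC they summed to 12.6 to 32.8 CPM. Both lists were thus higher in CD11c+ than in LYVE1+ libraries in controls, while the neutrophil sums of these subsets overlapped after IC. The part of the neutrophil, monocyte and LYVE1-side lists in the results below was not tested. At equal depth, 11547 to 13856 genes were detected in LYVE1+ libraries after IC and 13815 to 17715 in the others. In sorted bulk samples, a lower level in each cell and a smaller share of cells that express a gene cannot be told apart. One library of each subset, control replicate 2, stood apart from the other controls in the arginine transporter Slc7a2, as described below, and the member calls that were gained or lost without these 3 libraries are given below.

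Per kilobase of exon, the most abundant member was the exchanger heavy chain Slc3a2, with a mean of 77.7 CPM per kb over the 6 groups, higher than 96.8% of the genes tested. It varied little, from 64.5 CPM per kb in CD11c+ controls to 89.2 CPM per kb in CD11c- macrophages after IC. Next was Slc38a2, a sodium-coupled transporter of glutamine and other small neutral amino acids, at 48.3 CPM per kb and with group means between 44.9 and 54.3 CPM per kb. Slc7a2 followed with 38.7 CPM per kb, which rested on a few libraries. Among the other Slc7 light chains and transporters, Slc7a8 (LAT2) had 25.9 and Slc7a5 (LAT1) 12.5 CPM per kb. In Slc43, the facilitative transporter of large neutral amino acids Slc43a2 (LAT4) had 27.9 CPM per kb, against 0.69 for Slc43a3 and 0.032 for Slc43a1. Slc2 was led by Slc2a6 with 30.3 CPM per kb, followed by Slc2a1 (GLUT1) with 12.7 and Slc2a8 with 3.40 CPM per kb. In Slc16 the lactate exporter Slc16a3 (MCT4) had 11.96 CPM per kb, Slc16a6 had 5.85 and Slc16a1 (MCT1) 4.58 CPM per kb. Slc37a2 led its family with 10.2 CPM per kb, above the glucose-6-phosphate transporter Slc37a4 with 5.16 and Slc37a3 with 3.13 CPM per kb. In Slc38, Slc38a10 had 20.8 and the lysosomal glutamine transporter Slc38a7 12.6 CPM per kb after Slc38a2. Slc1 and Slc5 were low beyond 1 member each. Slc1a5 (ASCT2), a glutamine transporter, had 14.04 CPM per kb against 0.39 for Slc1a2 and 0.35 for Slc1a4, and the myo-inositol transporter Slc5a3 had 8.31 CPM per kb against 1.64 for the vitamin transporter Slc5a6 and 0.50 for Slc5a11. Slc3a1, the other heavy chain, had 0.41 CPM per kb. The 20 members that did not pass the filter reached at most 29 counts and 9.83 CPM in any library, and they are not tested below.

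**Figure D1:**
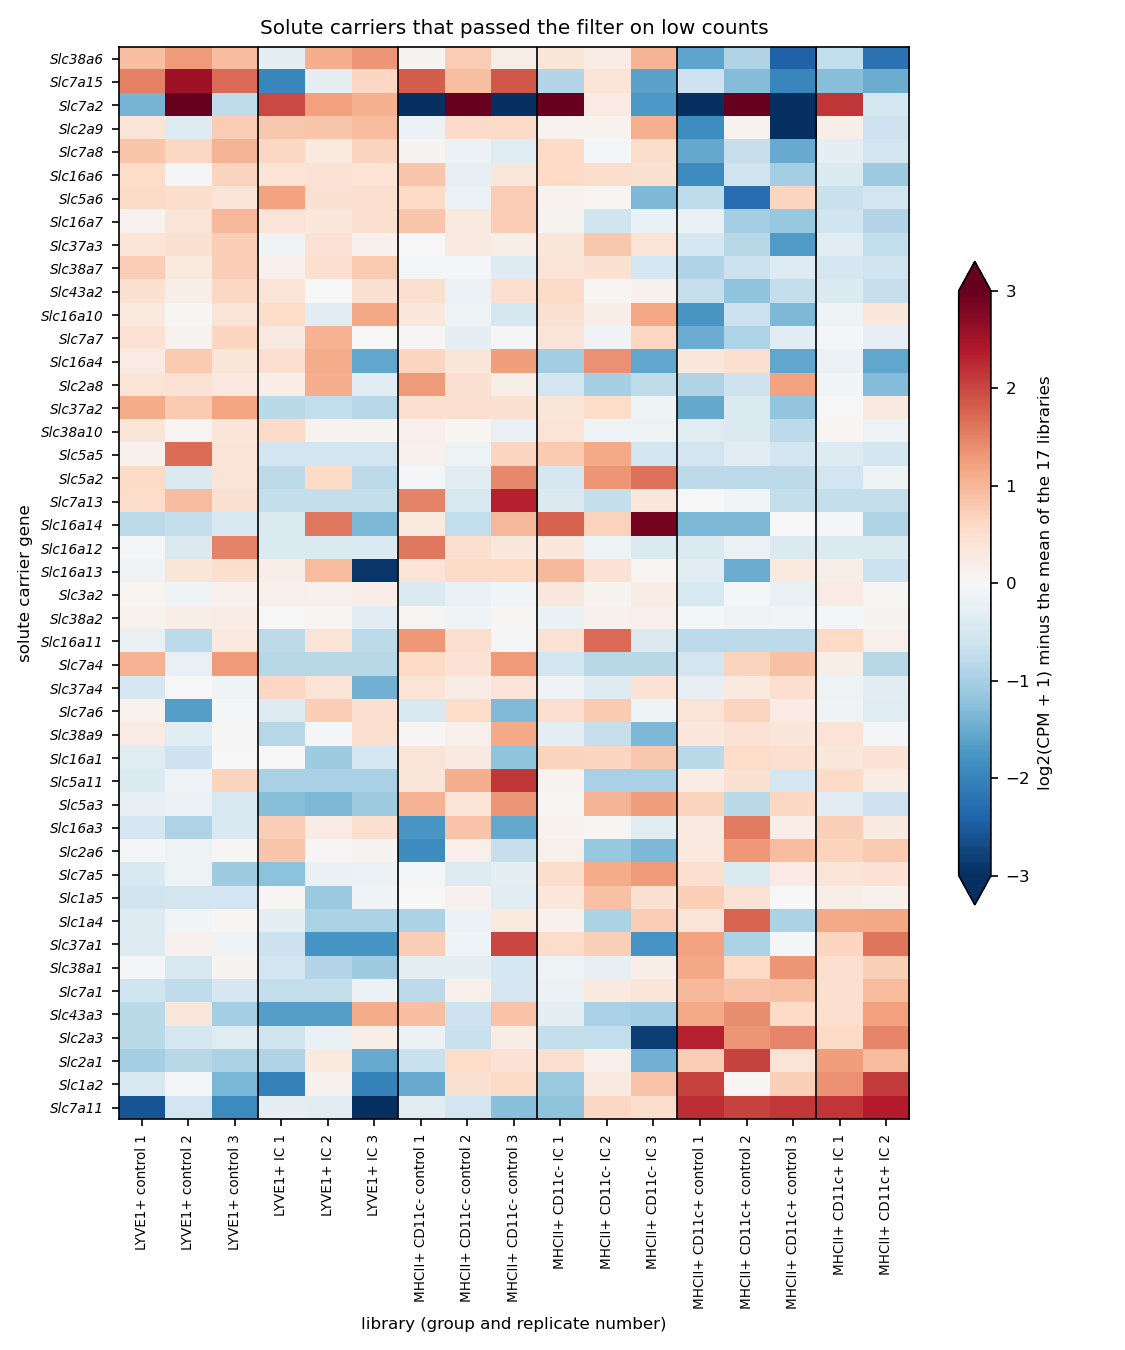
Levels of the 46 tested members (rows) in the 17 libraries (columns, by group and replicate number), as log2(CPM + 1) minus the mean of the row, with red above and blue below that mean and colours capped at 3 log2 units. Rows run from members higher in LYVE1+ to members higher in CD11c+ libraries, and Slc7a2 is the row with the largest spread between libraries of a group.

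Slc37a2, a sugar phosphate exchanger of the endoplasmic reticulum that is abundant in macrophages, was the member with the clearest response to IC, and the response depended on the subset. In LYVE1+ macrophages its level was 129, 103 and 135 CPM in controls and 33.1, 35.2 and 31.9 CPM after IC, so that no IC library came near a control library. In CD11c- macrophages it was 82.5, 84.3 and 81.2 CPM in controls and 75.8, 87.4 and 53.7 CPM after IC, and the groups overlapped. In CD11c+ macrophages it was 19.8, 43.7 and 25.3 CPM in controls and 59.2 and 70.9 CPM after IC, with both IC libraries above the 3 controls. IC and control libraries did not overlap for 21.6% of all genes tested in LYVE1+ and for 23.1% in CD11c+ macrophages. Slc37a2 fell in LYVE1+ macrophages by 1.87 on the log2 scale (SE 0.26, adjusted p = 0.000452, edgeR), which is 3.66-fold lower. It was the only one of 46 members called in that contrast, where 0.963% of all genes tested were called. All 26 alternatives of the analysis kept this call, with log2 fold changes between -1.98 and -1.75.

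The response of Slc37a2 in the other subsets was not called. The log2 fold change was -0.19 (SE 0.25, adjusted p = 0.913, edgeR) in CD11c- macrophages and 1.13 (SE 0.28, adjusted p = 0.134, edgeR) in CD11c+ macrophages. The latter was called without the CD11c+ control replicate 2, with 1.54 (SE 0.28, adjusted p = 0.00360, edgeR), and by DESeq2, with 1.05 (SE 0.30, adjusted p = 0.0450). The difference between the responses was tested directly. Between LYVE1+ and CD11c+ macrophages it was -2.999 (SE 0.38, adjusted p = 0.000359, edgeR), called under all 25 alternatives (no replicate block within treatment among them), and Slc37a2 was 1 of the 5 genes called in that contrast (0.0327% of the genes tested). Between LYVE1+ and CD11c- macrophages it was -1.68 (SE 0.36, adjusted p = 0.135, edgeR), and it was called by DESeq2 (-1.55, SE 0.38, adjusted p = 0.0219), with surrogate variables (-1.63, adjusted p = 0.0288, edgeR) and without CD11c+ control replicate 2 (-1.68, adjusted p = 0.0320, edgeR). Between the MHCII+ subsets it was 1.32 (SE 0.38) with an unadjusted p = 0.0018 in edgeR's fit over all genes and was called only in the fit without CD11c+ control replicate 2 (1.73, SE 0.35, adjusted p = 0.0394, edgeR). No member was called in the contrasts of the LYVE1+ with the CD11c- response (0.0262% of all genes called, 7 members, or 15.2%, at an unadjusted p under 0.05 beside 7.54% of all genes, 1 member by DESeq2 beside 38 of 22832 genes) or of the MHCII+ subsets with each other (0.00% called, 5 members, or 10.9%, at an unadjusted p under 0.05 beside 3.25% of all genes, 0 by DESeq2 beside 2 of 22832 genes). After Slc37a2 the smallest p-values for a difference between responses belonged to Slc38a1 (LYVE1+ minus CD11c- -1.02, SE 0.30, adjusted p = 0.376, edgeR) and to Slc7a8 (LYVE1+ minus CD11c+ -1.06, SE 0.34, adjusted p = 0.345, edgeR).

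The order of the subsets for Slc37a2 differed between treatments. In controls it was higher in LYVE1+ than in CD11c+ macrophages by 2.04 log2 units (SE 0.26, adjusted p = 5.18e-06, edgeR). After IC, in separate libraries, it was lower there (-0.96, SE 0.28, adjusted p = 0.0266, edgeR), a call that was lost without CD11c+ IC replicate 1 or 2 and without LYVE1+ IC replicate 1 or 3 (highest adjusted p = 0.266), and also with a replicate block within treatment or with the 2 groups fitted alone. Against CD11c- macrophages the log2 difference was 0.57 (SE 0.25, adjusted p = 0.404, edgeR) in controls and -1.11 (SE 0.26, adjusted p = 0.0104, edgeR) after IC, a call lost without CD11c- IC replicate 2 or with the 2 groups fitted alone (highest adjusted p = 0.0706). The gene lies on the minus strand of chromosome 9 (37227585 to 37255738, GRCm38), and 241 of its 6643 exon bases overlap the opposite-strand gene Gm48081. How counting treated the strand is not given in the sources used here.

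**Figure D2:**
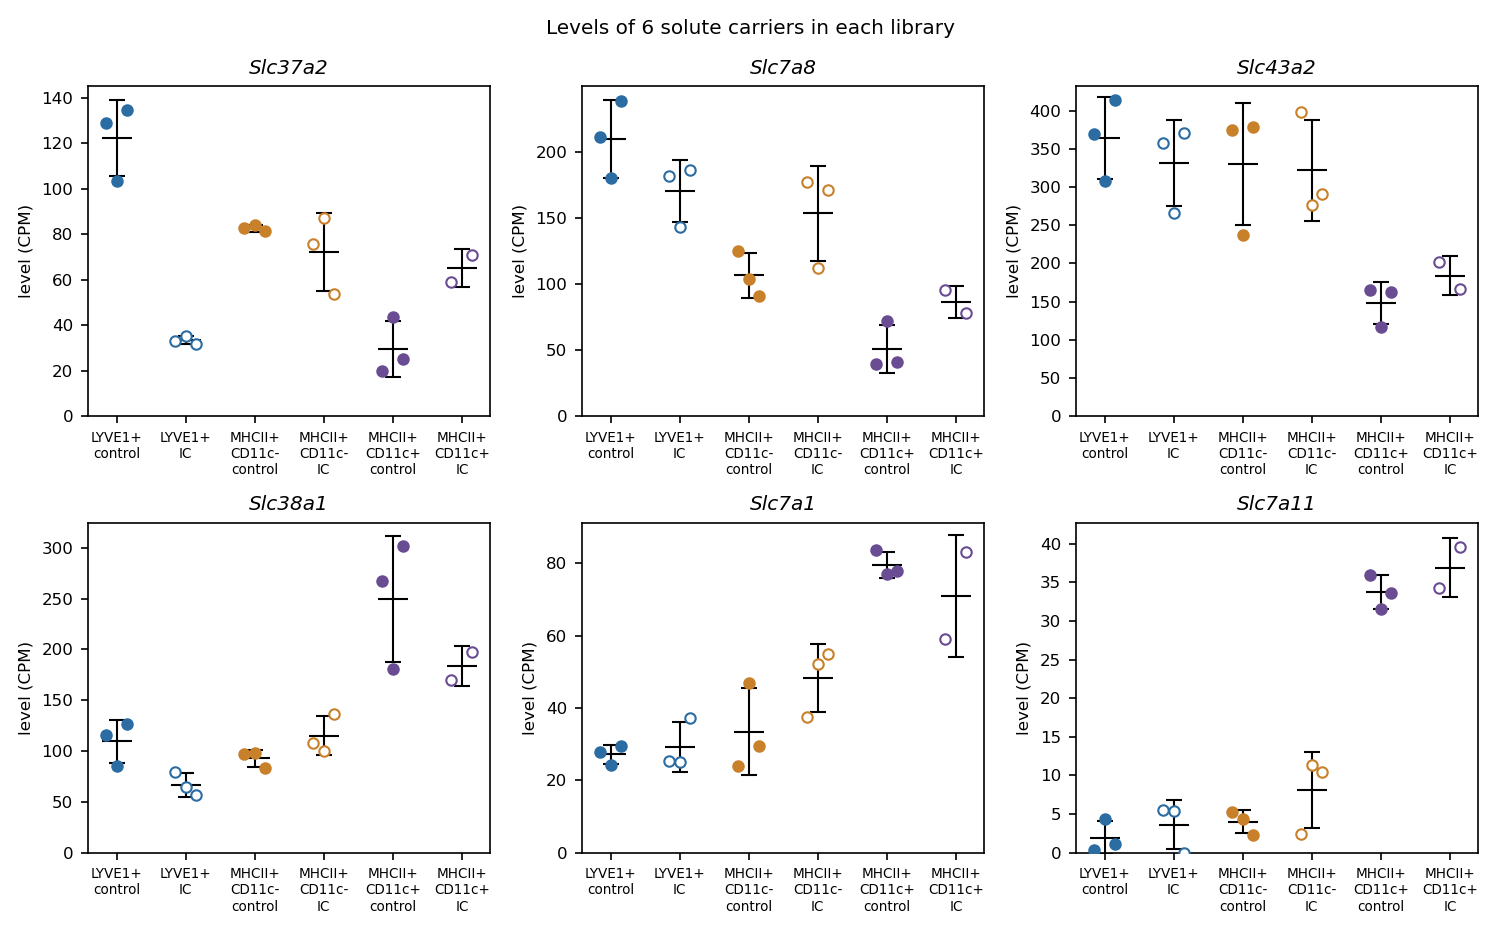
Levels in CPM (vertical axes, from 0) of 6 members in the 6 groups, one point per library, filled for control and open for IC, with the mean and SD of each group in black. Slc37a2 fell from 122.3 to 33.4 CPM in LYVE1+ macrophages. In CD11c+ macrophages Slc7a8 and Slc43a2 were lowest, and Slc38a1, Slc7a1 and Slc7a11 were highest.

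The stretches before the start sites of 2 members are shown because Slc37a2 was the member that changed with IC and Slc7a11 had one of the larger called differences between subsets. They are the 250 bases ahead of the RefSeq start site, read on the gene's strand (GRCm38.p6; minus strand, chr9:37255739-37255988 for Slc37a2 and chr3:50443614-50443863 for Slc7a11), and capitals mark matches on either strand to 3 motifs searched: CACGTG (the E-box), TGATGNAA (an element bound by C/EBP and ATF factors, known from amino acid response genes) and TGANTCA (the AP-1 element).
Slc37a2: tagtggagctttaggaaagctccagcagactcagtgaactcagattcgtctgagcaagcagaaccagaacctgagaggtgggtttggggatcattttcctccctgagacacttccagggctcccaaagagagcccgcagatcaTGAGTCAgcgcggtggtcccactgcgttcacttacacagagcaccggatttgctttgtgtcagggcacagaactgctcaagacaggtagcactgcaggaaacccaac
Slc7a11: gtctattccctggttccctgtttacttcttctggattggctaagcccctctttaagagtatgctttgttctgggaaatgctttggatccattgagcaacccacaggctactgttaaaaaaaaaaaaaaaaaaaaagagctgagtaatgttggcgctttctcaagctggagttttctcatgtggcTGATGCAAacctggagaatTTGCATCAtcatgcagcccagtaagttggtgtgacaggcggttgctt
The Slc37a2 stretch held 1 match to TGANTCA, and the Slc7a11 stretch held 2 to TGATGNAA, on opposite strands. RefSeq promoters were matched by symbol for 48 of the 66 members. TGANTCA was present for 6 of these 48 members and 7.82% of all 27025 genes with a promoter, TGATGNAA for 2 and 3.91%, and CACGTG for 5 and 6.86%. No 2 of these motifs overlapped in the stretches shown. The matches describe letters in these windows and say nothing of binding.

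Beyond Slc37a2, few members were called with IC. Averaged over the 3 subsets, 2 of 46 members were called, in a contrast where 3.35% of all genes were. Here 15 members (32.6%) had an unadjusted p under 0.05 in edgeR's test, beside 17.7% of all genes. Slc16a10 (TAT1), a carrier of aromatic amino acids, was higher after IC by 0.81 log2 units (SE 0.23, adjusted p = 0.0492, edgeR). Its level was 36.2, 30.3 and 38.4 CPM in LYVE1+ controls and 43.6, 23.0 and 66.4 CPM after IC. In CD11c- macrophages it was 36.9, 26.3 and 20.1 CPM in controls and 40.8, 33.6 and 66.6 CPM after IC. In CD11c+ macrophages it was 8.08, 18.4 and 10.97 CPM in controls and 26.6 and 36.8 CPM after IC. Only the last groups did not overlap, as for 23.1% of all genes tested there. Of 25 alternatives, 15 lost the call, with adjusted p-values between 0.0149 and 0.190. Slc7a4, grouped with the cationic transporters by sequence, was lower (log2 fold change -4.04, SE 1.10, adjusted p = 0.0436, edgeR) near the detection floor of 3 counts per library. LYVE1+ control libraries held 17, 2 and 24 counts, and the 3 IC libraries 0 each. The control mean was 2.14 times the floor of the IC libraries. CD11c- controls held 8, 8 and 10 counts against 1, 0 and 0 with IC, and CD11c+ controls 1, 10 and 6 against 7 and 0 with IC. Of its 4153 exon bases, 554 overlap the opposite-strand gene P2rx6, and 15 of 24 alternatives lost the call. The members next by p in this average were Slc7a13 at low counts (-4.33, SE 1.22, adjusted p = 0.0544, edgeR), Slc3a2 (0.32, SE 0.10, adjusted p = 0.0732, edgeR) and Slc5a3 (-0.61, SE 0.21, adjusted p = 0.117, edgeR). Slc3a2 and Slc5a3 were called without the 3 control libraries numbered 2.

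In CD11c- macrophages no member was called (0.701% of all genes were), 11 members (23.9%) had an unadjusted p under 0.05 against 9.99% of all genes, and DESeq2 called 2 members and 1.26% of all genes. The smallest p belonged to Slc7a5, the leucine exchanger light chain LAT1. Its level was 39.7, 31.1 and 33.8 CPM in controls and 60.3, 89.8 and 100.7 CPM after IC, with no overlap, as for 14 members and 17.2% of all genes (log2 fold change 1.26, SE 0.32, adjusted p = 0.0689, edgeR, and 0.0269 by DESeq2). Its heavy chain Slc3a2 had a log2 fold change of 0.45 (SE 0.16, adjusted p = 0.276, edgeR), and the arginine sensor of the lysosome Slc38a9 had -1.27 (SE 0.38, adjusted p = 0.154, edgeR; 0.0386 by DESeq2). Next by p were the lactate and pyruvate carrier Slc16a7 (MCT2) with -0.87 (SE 0.30, adjusted p = 0.249, edgeR) and Slc2a8 with -1.65 (SE 0.62, adjusted p = 0.307, edgeR).

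In CD11c+ macrophages no member was called (0.216% of all genes were), 5 (10.9%) had an unadjusted p under 0.05 beside 5.21% of all genes, and DESeq2 called 1, Slc37a2, beside 0.32% of all genes. After Slc37a2, the smallest p-values belonged to Slc16a10 (log2 fold change 1.33, SE 0.42, adjusted p = 0.436, edgeR) and to the exchanger light chain Slc7a8 (0.76, SE 0.26, adjusted p = 0.551, edgeR). Next were Slc16a11, a monocarboxylate carrier family member with 0 counts in all 3 CD11c+ controls and an IC mean 1.63 times the floor of these controls, and Slc3a2 (0.38, SE 0.18, adjusted p = 0.947, edgeR). Slc7a8 was called in the fit without CD11c+ control replicate 2 (1.11, SE 0.25, adjusted p = 0.0353, edgeR). In LYVE1+ macrophages, 9 members (19.6%) had an unadjusted p under 0.05 beside 14.1% of all genes. The sodium-coupled glutamine transporter Slc38a1 had -0.71 (SE 0.21, adjusted p = 0.111, edgeR) and the myo-inositol transporter Slc5a3 -0.96 (SE 0.35, adjusted p = 0.213, edgeR). Both had no overlap of libraries, as did 13 members in all and 21.6% of all genes. Among the low members in this contrast, Slc5a5, Slc5a11 and Slc7a13 had 0 counts in all 3 IC libraries. Their controls held 4, 14 and 7 counts, 3, 3 and 15 counts, and 9, 8 and 9 counts. The control means were 1.76, 1.10 and 1.58 times the floor of the IC libraries, so these genes lay near the floor in controls too. The median log2 fold change of the 46 members was -0.13 in LYVE1+, 0.11 in CD11c- and 0.09 in CD11c+ macrophages, beside -0.137, -0.030 and 0.015 for all genes tested.

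**Figure D3:**
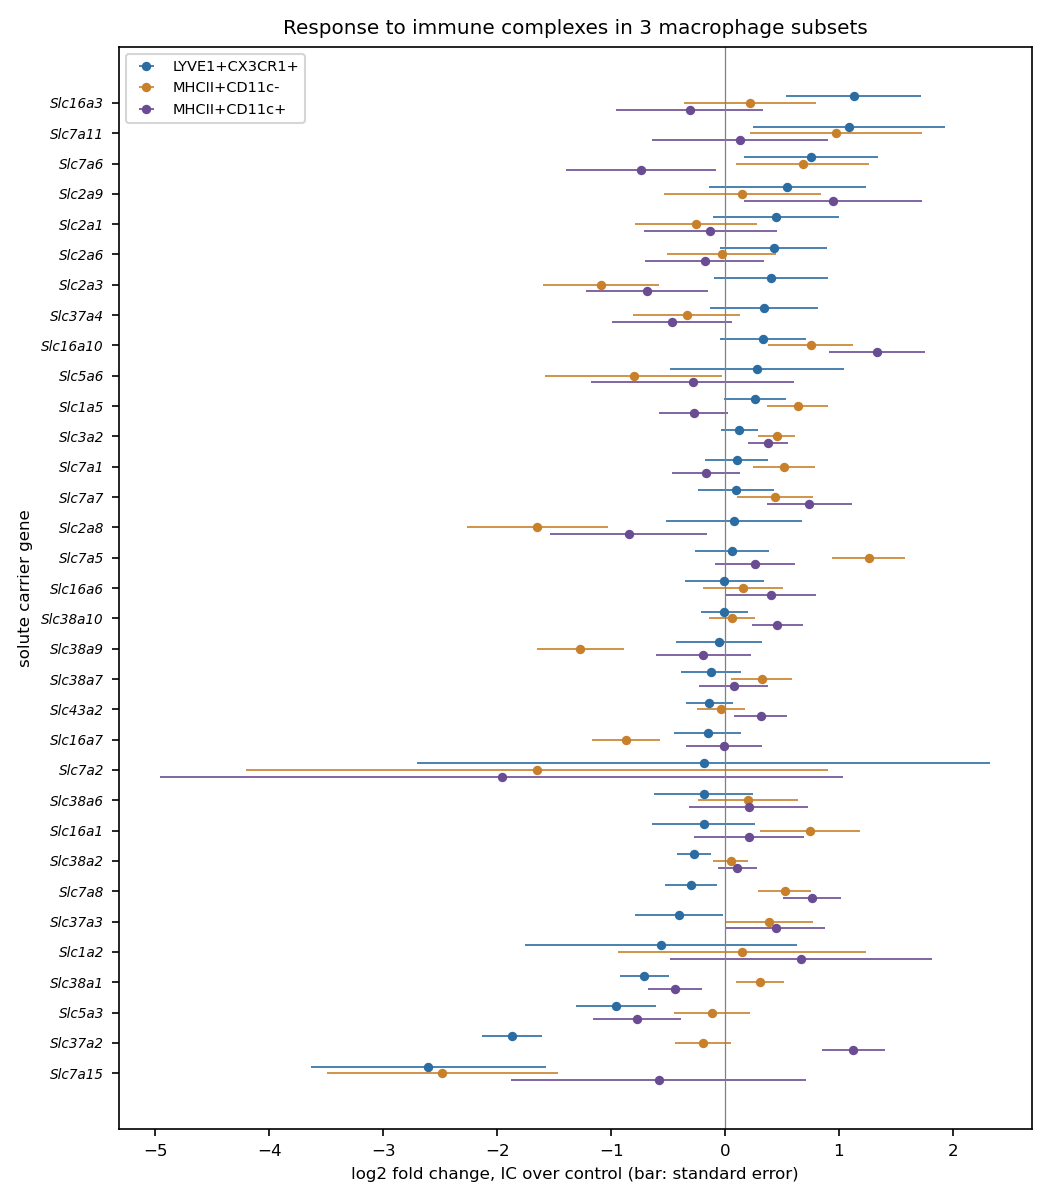
Log2 fold change of IC over control (horizontal axis, bars are 1 SE) in each subset for the 33 members whose mean level exceeded 10 CPM in some group, ordered by the value in LYVE1+ macrophages. Slc37a2 lies at -1.87 in LYVE1+ and at 1.13 in CD11c+ macrophages, and most other members lie near 0 or have wide bars, Slc7a2 the widest.

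More members were called between CD11c+ macrophages and either other subset in controls than for any response to IC. In controls, 18 of 46 members (39.1%) were called between LYVE1+ and CD11c+ macrophages, where 15.2% of all genes were called, with 12 higher and 6 lower in LYVE1+ macrophages. Between CD11c+ and CD11c- macrophages 11 members (23.9%) were called beside 8.66% of all genes, with 4 higher and 7 lower in CD11c+ macrophages. Between LYVE1+ and CD11c- macrophages 1 member was called (1.56% of all genes), as many as for IC in LYVE1+ macrophages. The members on the LYVE1+ side held carriers of large neutral and aromatic amino acids (Slc7a8, Slc43a2, Slc16a10), the exchanger light chain Slc7a7, Slc38a6, Slc38a7 and Slc38a10, the monocarboxylate carriers Slc16a6 and Slc16a7, Slc37a2 and Slc37a3, and Slc7a15. Those on the CD11c+ side held the plasma membrane glucose transporters Slc2a1 and Slc2a3 (GLUT3), the glutamine transporters Slc38a1 and Slc1a5, the arginine transporter Slc7a1 (CAT1) and the cystine and glutamate exchanger Slc7a11 (xCT). Libraries did not overlap for 28 members (37.7% of all genes) between LYVE1+ and CD11c+ controls. They did not overlap for 21 members (27.4%) between the MHCII+ controls and for 11 members (21.6%) between LYVE1+ and CD11c- controls.

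Slc7a8 separated all 3 subsets in controls. It was at 211.4, 180.0 and 238.9 CPM in LYVE1+, 125.0, 103.6 and 91.3 CPM in CD11c- and 39.8, 72.1 and 40.8 CPM in CD11c+ controls. These groups did not overlap, and the steps were 0.98 log2 units (SE 0.23, adjusted p = 0.0260, edgeR) and 1.06 log2 units (fold change of CD11c+ over CD11c- -1.06, SE 0.23, adjusted p = 0.00448, edgeR). After IC it was at 182.0, 143.2 and 186.3, at 177.2, 112.1 and 171.2, and at 95.3 and 78.1 CPM, where the first and the second subset overlapped. Slc43a2 was at 369.6, 308.6 and 414.4 CPM in LYVE1+ controls, at 374.3, 237.5 and 378.1 CPM in CD11c- controls and at 165.5, 116.3 and 162.6 CPM in CD11c+ controls, so the last subset lay below both others (log2 fold change of LYVE1+ over CD11c+ 1.30, SE 0.21, adjusted p = 0.0001, edgeR). The levels after IC were 357.5, 266.3 and 370.4, at 398.0, 276.5 and 291.4, and at 201.9 and 166.4 CPM in the same order. Of its 10042 exon bases 922 overlap Gm45606 on the other strand.

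The level of Slc38a6 was 42.8, 55.7 and 43.7 CPM in LYVE1+ controls, 23.7, 38.5 and 26.1 CPM in CD11c- controls and 6.81, 11.5 and 3.40 CPM in CD11c+ controls. It was 6.32-fold higher in LYVE1+ than in CD11c+ controls (log2 fold change 2.66, SE 0.48, adjusted p = 0.000280, edgeR). After IC its level was 18.4, 49.1 and 57.7, 29.0, 26.4 and 46.5, and 13.1 and 4.03 CPM, with CD11c+ libraries again the lowest. The monocarboxylate carrier Slc16a6 was at 38.9, 25.7 and 42.0 CPM in LYVE1+, 47.8, 22.1 and 33.4 CPM in CD11c- and 6.38, 16.9 and 12.5 CPM in CD11c+ controls. Its relative Slc16a7 was at 43.3, 52.7 and 81.2, at 71.9, 49.5 and 68.5, and at 34.7, 19.5 and 17.8 CPM. Both thus sat lower in CD11c+ controls (log2 fold change of LYVE1+ over CD11c+ 1.58, SE 0.36, adjusted p = 0.00355, and 1.29, SE 0.30, adjusted p = 0.00381, edgeR) without overlap. After IC, Slc16a6 was at 35.4, 35.9 and 35.3, 40.1, 38.3 and 36.6, and 19.5 and 11.9 CPM, and Slc16a7 at 53.0, 50.4 and 56.4, 42.8, 26.4 and 35.0, and 26.4 and 21.4 CPM. Of the exon bases of Slc16a6, 1052 of 4883 overlap Amz2. Slc7a15 was low throughout, with 63, 79 and 83 counts in LYVE1+ controls, 59, 35 and 39 counts in CD11c- controls and 7, 3 and 0 counts in CD11c+ controls. After IC it had 0, 7 and 12, then 5, 20 and 1, and then 4 and 2 counts. Its calls between controls (adjusted p = 0.0102 and 0.0312, edgeR) were lost without the 3 control libraries numbered 2. The other members called on this side were Slc38a7 (log2 fold change 1.27 at SE 0.27), Slc37a3 (1.58 at SE 0.39), Slc7a7 (1.31 at SE 0.34), Slc16a10 (1.48 at SE 0.39) and Slc38a10 (0.78 at SE 0.20), with adjusted p-values from 0.00180 to 0.00999 in edgeR's test. Single libraries decided some calls of this contrast. Slc16a10 was not called without CD11c+ control replicate 1 (adjusted p = 0.0669), Slc16a7 without LYVE1+ control replicate 3 (0.0621), Slc7a7 without either of these (highest 0.0657) and Slc38a10 without LYVE1+ control replicate 1 or 3 or CD11c+ control replicate 3 (highest 0.0592). The step of Slc7a8 from LYVE1+ to CD11c- controls was not called without LYVE1+ control replicate 1 or 3, without CD11c- control replicate 2 or 3, or with surrogate variables (highest 0.196).

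On the CD11c+ side, Slc7a11, which takes up cystine in exchange for glutamate and feeds glutathione synthesis, was lower in the other subsets. It was at 36.0, 31.6 and 33.7 CPM in CD11c+ controls, 0.32, 4.32 and 1.12 CPM in LYVE1+ controls and 5.33, 4.42 and 2.34 CPM in CD11c- controls. The log2 fold change of LYVE1+ over CD11c+ controls was -4.25 (SE 0.84, adjusted p = 0.00104, edgeR). With IC it was at 34.2 and 39.6 CPM in CD11c+, at 5.56, 5.35 and 0 CPM in LYVE1+ and at 2.44, 11.3 and 10.5 CPM in CD11c- macrophages. The arginine transporter Slc7a1 was at 83.8, 77.1 and 77.9 CPM in CD11c+, 27.7, 24.3 and 29.4 CPM in LYVE1+ and 24.1, 47.0 and 29.4 CPM in CD11c- controls (LYVE1+ over CD11c+ -1.55, SE 0.28, adjusted p = 0.000269, edgeR). The IC libraries were at 59.1 and 83.0, at 25.4, 25.2 and 37.3, and at 37.5, 52.1 and 55.0 CPM, so that the CD11c+ libraries stayed above all others.

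Slc38a1 was at 267.1, 180.6 and 301.4 CPM in CD11c+ controls, above every library of the LYVE1+ controls (116.2, 85.7 and 126.3 CPM) and of the CD11c- controls (97.0, 97.7 and 83.2 CPM). Its IC libraries were at 169.8 and 197.7, at 79.9, 64.2 and 56.8, and at 108.4, 100.5 and 136.5 CPM. The log2 fold change of LYVE1+ over CD11c+ was -1.19 (SE 0.21, adjusted p = 0.000256, edgeR) in controls. The high-affinity glucose transporter Slc2a3 was at 72.3, 36.4 and 40.1 CPM in CD11c+ controls, at 7.40, 9.46 and 10.6 CPM in LYVE1+ controls and at 12.2, 8.31 and 16.4 CPM in CD11c- controls, so that the CD11c+ libraries stood above all others (LYVE1+ over CD11c+ -2.44, SE 0.50, adjusted p = 0.00124, edgeR). After IC it was at 21.6 and 40.1, at 8.78, 11.96 and 15.8, and at 7.98, 7.83 and 1.10 CPM. Slc2a1, at 57.0, 140.6 and 45.4 CPM in CD11c+ and 16.1, 18.6 and 17.02 CPM in LYVE1+ controls (-2.24, SE 0.55, adjusted p = 0.0102, edgeR), was not called in the fit without the 3 control libraries numbered 2 (adjusted p = 0.0613). Slc1a5 was lower in LYVE1+ controls (fold change on the log2 scale -1.01, SE 0.27, adjusted p = 0.0108, edgeR), a call lost without CD11c+ control replicate 1 (0.0701).

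The libraries taken after IC shared no sample with the controls and gave a second look at the subset differences. Of the 18 members called for LYVE1+ against CD11c+ macrophages in controls, 17 had the same direction after IC and 8 were called again in that direction (Slc38a1, Slc7a1, Slc38a6, Slc7a11, Slc7a8, Slc43a2, Slc38a7 and Slc16a7), and Slc37a2 was called in the opposite direction. Over all genes called in the controls, 96.6% had the same direction after IC and 51.4% were called again with it. In all, 9 members were called between these subsets after IC beside 11.9% of all genes, and with only 2 CD11c+ libraries this count fell to 4 or 1 when either of them was left out. Between the MHCII+ subsets 11 of 11 members kept their direction, and after IC 2 were called beside 4.03% of all genes. These were Slc2a3 (CD11c+ over CD11c- 2.42, SE 0.55, adjusted p = 0.00931, edgeR) and Slc38a6 (-1.97, SE 0.53, adjusted p = 0.0340, edgeR). Neither was called without CD11c+ IC replicate 2, and Slc38a6 was also not called without CD11c- IC replicate 3 or with a replicate block. Slc43a2 followed with -0.81 (SE 0.24, adjusted p = 0.0575, edgeR).

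**Figure D4:**
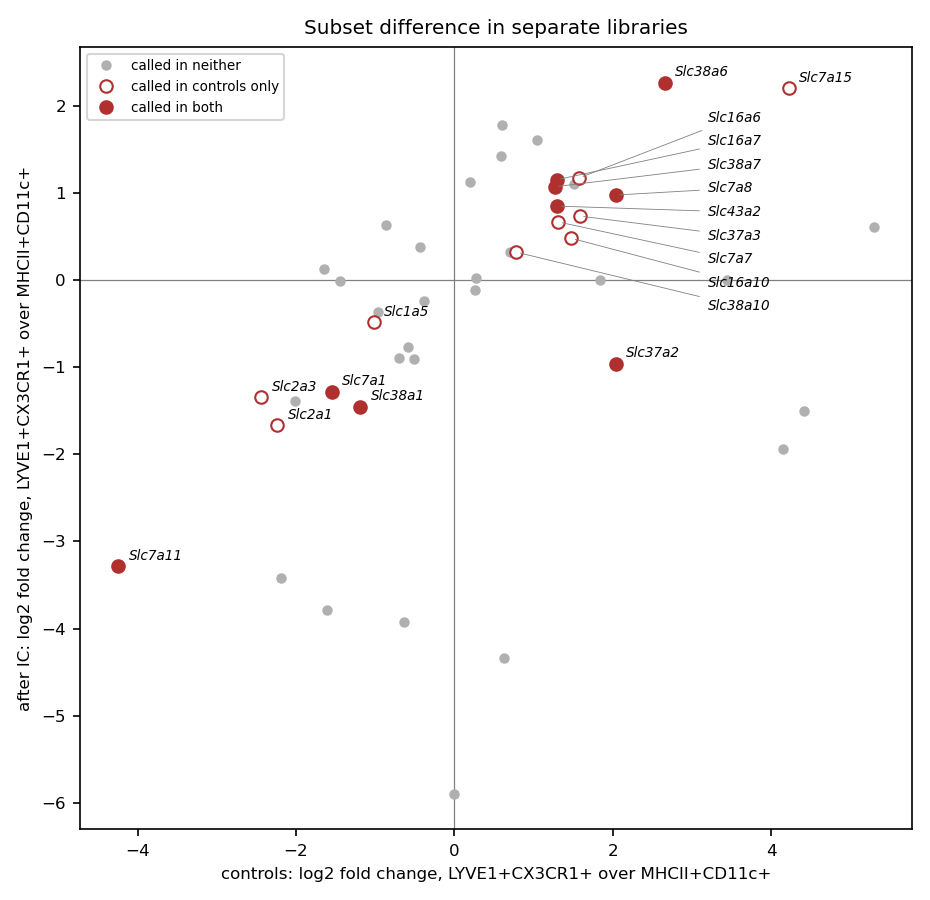
Log2 fold change of LYVE1+ over CD11c+ macrophages in controls (horizontal axis) and after IC (vertical axis) for the 46 tested members, with members called in both contrasts filled, in controls only open and in neither grey. Of the 18 named members, Slc37a2 is the one whose sign differs between the axes, at 2.04 and -0.96.

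Between LYVE1+ and CD11c- macrophages the calls after IC were others than in controls. After IC 5 members were called beside 5.54% of all genes, all lower in LYVE1+ macrophages. Slc5a3 was at 31.6, 29.9 and 36.9 CPM in LYVE1+ and at 79.6, 158.2 and 188.0 CPM in CD11c- macrophages (log2 fold change -2.11, SE 0.36, adjusted p = 0.00150, edgeR). Slc7a5 was at 16.97, 35.9 and 36.5 CPM and at 60.3, 89.8 and 100.7 CPM (-1.49, SE 0.33, adjusted p = 0.00653, edgeR). Both were called under all 27 alternatives, while Slc38a1 (-0.78, SE 0.21, adjusted p = 0.0306, edgeR) lost its call under 8 and Slc1a5 (-0.91, SE 0.27, adjusted p = 0.04998, edgeR) under 19. None of the 4 was called for a difference between the responses of these subsets, so a change of the subset difference with IC was not shown for them. Slc5a3 was already lower in LYVE1+ controls, at 65.5, 69.5 and 55.8 CPM against 160.8, 104.4 and 195.6 CPM, without being called (-1.27, SE 0.34, adjusted p = 0.0734, edgeR) and was called in the fit without the 3 control libraries numbered 2 (-1.59, SE 0.30, adjusted p = 0.00432, edgeR).

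Slc7a2 (CAT2), an arginine transporter known to be induced with activation in macrophages, varied most between libraries of a group. In LYVE1+ controls it was at 23.1, 544.6 and 36.0 CPM, in CD11c- controls at 2.77, 2174 and 4.68 CPM and in CD11c+ controls at 0.85, 1870 and 0 CPM, in the order of the replicate numbers. Replicate 2 was thus by far the highest control in each subset, and Slc7a2 made up 19.4%, 49.97% and 45.6% of the summed CPM of all 66 members there. After IC it was at 249.3, 147.0 and 131.1 CPM in LYVE1+, at 605.3, 73.3 and 18.2 CPM in CD11c- and at 278.1 and 42.7 CPM in CD11c+ macrophages, with replicate 1 the highest in each. Arg1, the arginase that splits the arginine Slc7a2 imports, ran alongside. It was at 1.58, 552.2 and 8.09, at 2.13, 1979 and 12.4, and at 2.13, 1500 and 0 CPM in the same controls, and at 73.1, 37.8 and 10.8, at 429.0, 32.6 and 9.36, and at 275.0 and 28.8 CPM after IC. Nos2, which uses arginine to make nitric oxide, stayed at or below 2.27 CPM in every library. Ranked by the log2 excess of control replicate 2 over the higher of the other controls, averaged over the subsets, Slc7a2 was first and Arg1 second of 22859 genes, a comparison made after the values were seen. Of the other members, Slc16a3 was also high in replicate 2 of the MHCII+ controls (15.4, 99.1 and 18.1 CPM in CD11c- and 64.9, 160.1 and 62.4 CPM in CD11c+) but not of the LYVE1+ controls (38.1, 28.1 and 39.2 CPM). Of 46 members, 3 (Slc7a2, Slc2a1 and Slc38a6) were highest in replicate 2 in all 3 subsets, 6.52% beside 7.39% of all genes.

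**Figure D5:**
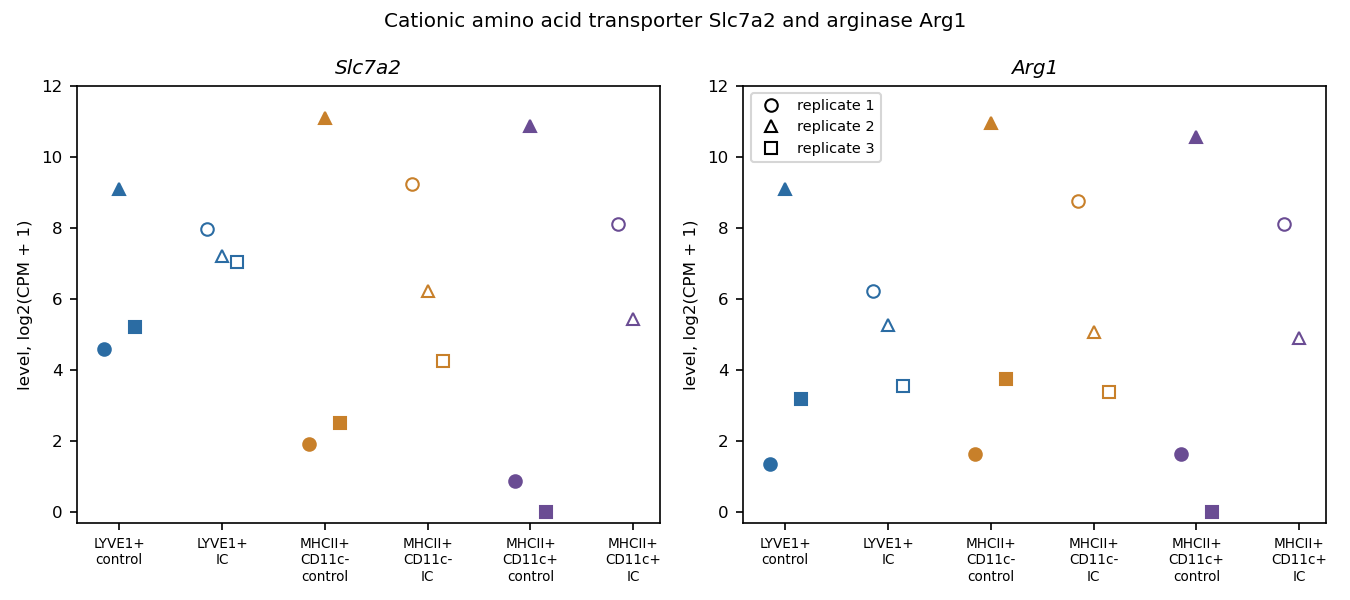
Level of Slc7a2 (left) and Arg1 (right) as log2(CPM + 1) in each library by group, with filled symbols for control and open ones for IC and a symbol for each replicate number. In every subset control replicate 2 (triangle) lies above the other controls and IC replicate 1 (circle) above the other IC libraries.

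The response of Slc7a2 to IC depended on these libraries. With all 17 libraries the log2 fold change averaged over the subsets was -1.26 (SE 1.55, adjusted p = 0.758, edgeR). Without the 3 control libraries numbered 2 it was 5.60 (SE 1.10, adjusted p = 0.0235, edgeR), so the sign turned and the gene was called, and DESeq2 gave no p-value for it. Slc16a3 likewise changed, from 0.35 (SE 0.35, adjusted p = 0.692, edgeR) with all libraries to 0.9992 (SE 0.16, adjusted p = 0.000509, edgeR) without those 3. In CD11c- macrophages alone it went from 0.22 (adjusted p = 0.960) to 1.64 (SE 0.29, adjusted p = 0.00357, edgeR). In LYVE1+ macrophages, where its controls did not differ in this way, Slc16a3 was at 90.7, 64.5 and 75.9 CPM after IC and had a log2 fold change of 1.13 (SE 0.59, adjusted p = 0.423, edgeR). With only the 2 LYVE1+ groups fitted it was 1.20 (SE 0.24, adjusted p = 0.0601, edgeR). Without the 3 control libraries it was 1.08 (SE 0.27, adjusted p = 0.0709, edgeR), so the SE depended on other subsets and neither fit called it. The fall of Slc37a2 in LYVE1+ macrophages was of similar size without the 3 libraries (-1.89, SE 0.25, adjusted p = 0.000453, edgeR), and the average fall of Slc7a4 was not called (adjusted p = 0.0599). The subset differences moved too. In controls, the fits without these libraries called Slc16a3 lower in CD11c- than in LYVE1+ macrophages (1.18, adjusted p = 0.0373; -0.34 with all libraries) and than in CD11c+ macrophages (1.94, adjusted p = 0.000158). They also called Slc2a9 lower in CD11c+ than in both other subsets (LYVE1+ over CD11c+ 3.69, adjusted p = 0.00409), Slc5a3 and Slc7a5 lower in LYVE1+ than in CD11c+ controls (adjusted p = 0.0198 and 0.0317), and between the MHCII+ controls Slc16a10 and Slc2a6 (adjusted p = 0.0432 and 0.0226, all edgeR). After IC, where no library was left out but the shared fit changed, Slc16a6 and Slc2a1 were gained for LYVE1+ against CD11c+ macrophages, Slc16a6, Slc43a2, Slc5a3 and Slc7a8 between the MHCII+ subsets, and Slc1a5 was lost for LYVE1+ against CD11c- macrophages (adjusted p = 0.0809, edgeR).

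Of 70 other genes of nutrient handling (sugar phosphate and monocarboxylate partners, enzymes that use amino acids, and amino acid sensing), 64 were tested. None was called with IC in LYVE1+ or CD11c- macrophages, 1 rose in CD11c+ macrophages (0.216% of all genes were called), and 4 rose in the average over the subsets (3.35% of all genes). Glul, the glutamine synthetase, rose in CD11c+ macrophages from 127.8, 215.1 and 156.6 to 382.1 and 282.7 CPM (log2 fold change 0.9967, adjusted p = 0.0290, edgeR) and on average by 0.68 log2 units (adjusted p = 0.000606, edgeR). The other 3 that rose on average were Gpt2, an alanine aminotransferase (1.77, adjusted p = 0.0165), Gsr, the glutathione reductase (0.93, adjusted p = 0.0227), and Hif1a, the oxygen-regulated factor (0.37, adjusted p = 0.0429, all edgeR). In controls 6 of the 64 were higher and 8 lower in LYVE1+ than in CD11c+ macrophages, beside 15.2% of all genes called. Glul, at 713.6, 654.1 and 785.9 CPM in LYVE1+ controls, was among the higher ones (2.11, adjusted p = 3.36e-08, edgeR), while the serine synthesis enzyme Psat1 was lower (-2.53, adjusted p = 0.000489, edgeR), both named after their values were seen. None of the 64 was called for a difference between the IC responses of any 2 subsets.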

How the data were processed

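Per the labels, RNA of sorted synovial macrophages (5 ng per library) was made into stranded total RNA libraries and sequenced in paired ends. The authors trimmed reads with Trim Galore, aligned them to mm10 with HISAT2, counted them per gene with featureCounts and deposited the counts without normalization. Versions, gene annotation, strand setting and treatment of multiply mapped reads are not given in the sources used here, and 1 column of the table that matched no sample was not used. The study analysed its counts with DESeq2 and removed an unnamed batch with sva.

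Genes were filtered with edgeR's filterByExpr (minimum count 10), library sizes were scaled by TMM, and 1 mean per group was fitted over all 17 libraries (11 residual degrees of freedom) by edgeR 4.0.16 in R 4.3.3, with robust quasi-likelihood F tests for 13 contrasts and Benjamini-Hochberg adjustment over 15272 genes. A gene was called at an adjusted p under 0.05. The script was tested on simulated counts. A level of 0 allows up to 3 counts per library, which covers counting error only. Alternatives were DESeq2 1.42.0, RLE scaling, no filter, equal depth (2301913 counts), an offset for transcript length, 5 surrogate variables (sva 3.50.0), replicate blocks, only the 2 groups compared and leaving out each library. Leaving out all 3 control libraries numbered 2 was added after the data were seen.

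Members and lists were chosen with earlier results of these data known. Named were all members called in any contrast, the 5 with the smallest p in each contrast (for the differences between responses, those of the first ranks), the 3 most abundant per family and the other pathway genes called with IC, with values per library for members called with IC or in at least 2 contrasts between control subsets. Values per library of Slc7a2, Slc16a3, Slc7a5, Slc5a3 and Slc2a1 were added after they were seen. Promoters came from RefSeq tables (GRCm38.p6), and motifs were chosen after results were known.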

Additional observations from a re-analysis of the deposited data

Results flagged for a closer look

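The response of Slc37a2 to IC differed between LYVE1+ and CD11c+ macrophages by -2.999 log2 units (SE 0.38, adjusted p = 0.000359, edgeR's quasi-likelihood test of the interaction). It is listed here because the difference between the responses was itself past the threshold. Levels were lower in 3 of 3 LYVE1+ IC libraries and higher in 2 of 2 CD11c+ IC libraries than in any control of the same subset. Such separation, in either direction, was seen for 21.6% of all genes tested in LYVE1+ and 23.1% in CD11c+ macrophages. Over the 25 alternatives the difference ran from -3.42 to -2.77, and each of them called it. A replicate block within treatment was not among them. Groups of 2 or 3 libraries were too small for a test of an outlying library within a group.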

How the results depend on the processing

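Of the 50 member calls over the 13 contrasts, 22 were kept under every alternative run, 28 were lost under at least 1 and 0 changed sign. The number of members called differed from the main count as follows. With surrogate variables it was 8 for IC in LYVE1+, 2 in CD11c- and 8 for the average over subsets, 0 for LYVE1+ against CD11c- in controls and 11 after IC, 20 for LYVE1+ against CD11c+ and 7 for CD11c+ against CD11c- after IC, and 1 for the difference of the LYVE1+ and CD11c- responses. DESeq2 gave 2 for IC in CD11c-, 1 in CD11c+ and 5 on average, 2 for LYVE1+ against CD11c- in controls, 7 for CD11c+ against CD11c- after IC and 1 for the difference of the LYVE1+ and CD11c- responses. These counts stand beside larger shares of all genes called. With surrogate variables these were 10.2% for IC in LYVE1+, 1.67% in CD11c- and 10.7% on average, 2.03% for LYVE1+ against CD11c- in controls and 17.8% after IC, 26.5% for LYVE1+ against CD11c+ and 8.25% for CD11c+ against CD11c- after IC, and with DESeq2 4.05% for IC on average, 2.15% for LYVE1+ against CD11c- in controls and 4.39% for CD11c+ against CD11c- after IC. For the difference of the LYVE1+ and CD11c- responses they were 1.13% with surrogate variables and 0.166% with DESeq2. Without the 3 control libraries numbered 2 they were 1.74%, 0.976% and 5.16% for IC in CD11c-, in CD11c+ and on average. In that fit they were 2.63% for LYVE1+ against CD11c- in controls and 5.41% for CD11c+ against CD11c- after IC. RLE scaling gave 1 for IC on average (3.27% of all genes) and 3 for LYVE1+ against CD11c- after IC (5.46%). Equal depth gave 1 for IC on average (3.53%), and no filter gave 1 for IC in CD11c- (0.595%). Fitting only the 2 groups gave 1 for IC in CD11c-, 2 for LYVE1+ against CD11c- in controls and 2 after IC, 4 for LYVE1+ against CD11c+ and 6 for CD11c+ against CD11c- after IC. The shares of all genes called in these fits were 0.579%, 3.92%, 3.37%, 9.88% and 8.24%, in that order. Without the 3 control libraries numbered 2 there were 1 for IC in CD11c-, 2 in CD11c+ and 5 on average, 3 for LYVE1+ against CD11c- in controls and 6 for CD11c+ against CD11c- after IC. The replicate block gave 0 for IC on average (3.04% of all genes), and the replicate block within treatment 2 for LYVE1+ against CD11c- in controls (2.46%). Deviations of same-numbered libraries correlated positively in 9 of 9 pairs among controls (r 0.0074 to 0.286, 2 over 0.1; best match with the own number in 14 of 18 comparisons) and in 7 of 7 pairs among IC libraries (0.0013 to 0.0659; 11 of 14), and in 10 of 24 pairs between treatments (-0.153 to 0.0817; 13 of 48). As not every pair was over 0.1 and the labels give no shared animal, the numbers were not taken as pairs in the main fit. Whether same-numbered libraries within a treatment shared animals could not be told from these values. If they did, p-values for the average over subsets, for subset contrasts and for the differences between responses would not measure the spread between animals. The replicate block within treatment was fitted for subset contrasts only, so the differences between responses were not fitted with it. Leaving out 1 library gave 0 to 1 members for IC in CD11c-, 0 to 2 in CD11c+ and 0 to 4 on average, 0 to 2 for LYVE1+ against CD11c- in controls and 3 to 6 after IC, 15 to 20 for LYVE1+ against CD11c+ in controls and 1 to 12 after IC, 9 to 13 for CD11c+ against CD11c- in controls and 0 to 5 after IC, and 0 to 1 for the difference of the LYVE1+ and CD11c- and of the CD11c+ and CD11c- responses. Both calls for IC on average were lost without LYVE1+ control 1, 2 or 3, LYVE1+ IC 1, CD11c- control 3, CD11c+ control 3 or CD11c+ IC 1 or 2, while 4 members were called without CD11c+ control 2. The log2 fold change of Slc7a2 for IC on average (-1.26) changed sign to 1.90 with surrogate variables, 1.42 with the replicate block, 5.60 without the 3 control libraries numbered 2, 1.29 without CD11c- control 2 and 2.11 without CD11c+ control 2, and ran from -2.03 to 2.11 over single libraries left out. That of Slc16a3 changed sign in CD11c+ macrophages (-0.31) to 0.27 without those 3 libraries and 0.28 without CD11c+ control 2 (single libraries -0.55 to 0.28), and in CD11c- macrophages (0.22) to -0.17 and -0.13 without CD11c- control 1 and 3 (single libraries -0.17 to 1.64). The causes were not tested. Depth limits the members near the floor, and with 2 CD11c+ libraries after IC the contrasts that use them rest on either one.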
